A study of Mus musculus with 2 samples.

Results

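Short regions of H3K36me2 inside compact genes were examined in regulatory T (Treg) cells of mouse spleen. A short region is a row of the authors' deposited region lists under 1000 bp long. A compact gene is a protein-coding gene whose body, from its first to its last annotated base, measures 2 to under 10 kb. Regions on chromosomes 1 to 19 and X counted when they had at least 1 bp in such a gene and none in a coding gene of 300 kb or more. By this rule 3367 of the 94272 deposited regions were members, 1695 of 54527 in the wild-type library and 1672 of 39745 in the knockout library. Short regions numbered 79961 in all on these chromosomes, 46306 in wild type and 33655 in the knockout.

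There was 1 library from wild-type mice and 1 from mice with an Nsd2 Treg conditional knock out, both of the C57BL/6 background and both from splenic Treg cells. The Cre driver, the floxed allele, the age and number of the mice, and the control alleles are unstated in the labels. With 1 library per genotype, replicate spread is unknown and differences between genotypes are given without p-values. Intervals are 95% intervals, cover counting error only and say nothing of the spread between animals, and tags are PCR reads without molecular identifiers.

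H3K36me2 is histone H3 carrying 2 methyl groups on lysine 36. NSD2 is one of the enzymes that place it, along with NSD1 and other family members, and the mark typically forms wide domains over genes and the DNA between them. Over transcribed gene bodies another enzyme, SETD2, can convert it to the trimethylated form. Treg cells restrain immune responses and depend on the factor Foxp3. Compact genes include many that cells transcribe quickly or constantly, such as immediate-early genes and genes for ribosomal proteins, actin and chemokine receptors, and they often lie in gene-rich stretches of chromosome.

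The promoters that follow show what kind of sequence lay under the strongest short regions at gene starts. Each covers 250 bases before to 50 after the start and comes from the RefSeq table of GRCm38.p6 (mm10). All are written 5′ to 3′ on the gene's strand. Capitals mark matches, on either strand, to any of 10 motifs searched. In the sequences printed these were the GC box, the CCAAT box and the TATA box. Atg4d, an autophagy protease, and Ptma, which encodes prothymosin alpha, had a short region over at least 200 promoter bases in both libraries. The Atg4d promoter, chr9:21265035-21265334 on the plus strand, lay under a wild-type region with 19.8 normalised tags and a knockout region with 17.9. The Ptma promoter, chr1:86526307-86526606 on the plus strand, lay under 21.9 tags in wild type and 13.2 in the knockout.
Atg4d: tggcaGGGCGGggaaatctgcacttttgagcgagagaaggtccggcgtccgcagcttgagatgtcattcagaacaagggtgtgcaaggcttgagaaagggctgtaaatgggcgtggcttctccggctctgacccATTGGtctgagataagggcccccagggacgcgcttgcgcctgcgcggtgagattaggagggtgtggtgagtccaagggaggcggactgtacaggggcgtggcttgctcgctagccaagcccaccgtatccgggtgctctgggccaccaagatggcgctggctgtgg
Ptma: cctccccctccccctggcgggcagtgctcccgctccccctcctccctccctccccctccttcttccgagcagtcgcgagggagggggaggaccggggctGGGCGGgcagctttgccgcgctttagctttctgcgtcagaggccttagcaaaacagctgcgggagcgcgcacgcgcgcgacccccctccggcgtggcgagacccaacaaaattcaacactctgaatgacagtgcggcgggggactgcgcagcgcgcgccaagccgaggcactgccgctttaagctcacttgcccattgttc

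Neu4, a sialidase, and Mmp21, a matrix metalloproteinase, had the strongest such regions in the wild-type library with none over that promoter in the knockout list. The Neu4 promoter, chr1:94020243-94020542 on the plus strand, lay under 16.9 tags and held none of the 10 motifs. The Mmp21 promoter, chr7:133680012-133680311 on the minus strand, lay under 16 tags and held a TATAAA.
Neu4: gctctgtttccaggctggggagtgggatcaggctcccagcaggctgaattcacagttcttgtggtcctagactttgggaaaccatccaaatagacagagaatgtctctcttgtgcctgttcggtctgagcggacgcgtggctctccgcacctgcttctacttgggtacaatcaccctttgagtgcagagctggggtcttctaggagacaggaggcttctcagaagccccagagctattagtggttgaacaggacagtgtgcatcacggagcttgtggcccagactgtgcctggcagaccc
Mmp21: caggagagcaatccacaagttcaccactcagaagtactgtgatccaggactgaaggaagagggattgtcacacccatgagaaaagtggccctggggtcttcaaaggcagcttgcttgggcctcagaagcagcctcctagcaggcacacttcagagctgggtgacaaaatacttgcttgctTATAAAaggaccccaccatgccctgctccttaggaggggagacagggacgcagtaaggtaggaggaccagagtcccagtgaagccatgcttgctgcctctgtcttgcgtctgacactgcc

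Gnmt, a glycine methyltransferase, and Ung, a uracil-DNA glycosylase of base excision repair, stood first in the knockout list among promoters without a wild-type short region. The Gnmt promoter, chr17:46729116-46729415 on the minus strand, lay under 18.6 tags. The Ung promoter, chr5:114130185-114130484 on the plus strand, lay under 17.9 tags. GC content was 61.7% in Atg4d, 68% in Ptma, 55.3% in Neu4, 54.3% in Mmp21, 62% in Gnmt and 64.7% in Ung.
Gnmt: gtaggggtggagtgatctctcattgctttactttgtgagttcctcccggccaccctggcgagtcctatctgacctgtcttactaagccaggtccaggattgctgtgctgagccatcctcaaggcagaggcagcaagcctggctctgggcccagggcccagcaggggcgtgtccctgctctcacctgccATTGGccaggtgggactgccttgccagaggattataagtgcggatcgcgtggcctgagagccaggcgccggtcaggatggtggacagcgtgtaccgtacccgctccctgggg
Ung: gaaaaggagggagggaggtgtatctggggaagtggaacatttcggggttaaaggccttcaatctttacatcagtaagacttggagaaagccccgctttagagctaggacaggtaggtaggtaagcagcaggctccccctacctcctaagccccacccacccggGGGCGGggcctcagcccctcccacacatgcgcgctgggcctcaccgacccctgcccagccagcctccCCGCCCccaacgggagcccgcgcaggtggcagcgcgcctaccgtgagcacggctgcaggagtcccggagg

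A tag count is the authors' normalised value, the tags in a region scaled to 10000000 tags per library. The wild-type library had 17158154 tags and the knockout library 14789700, of which 7.17% and 5.89% lay in regions. The caller's bar was 13 tags for the wild-type library and 12 for the knockout, or 7.58 and 8.11 after scaling, so the scaled bar was higher in the knockout. The lowest deposited scores of members were 13 and 12, while the normalised tag count of a region can lie under the scaled bar. Scaling to equal totals removes any change in the amount of the mark over the whole genome. The lists hold called regions only, so a gene without a region had no level above the caller's bar, not a level of 0. Of 12 Treg and T cell marker genes 11 carried a region of any length in each library, over 19.9% (wild type) and 23.1% (knockout) of their length. Regions lay on 6 and 5 of 10 B cell markers, on 4 and 5 of 10 myeloid markers, on 6 and 1 of 10 NK and CD8 T cell markers and on 1 and 0 of 6 erythroid markers, wild type first. The region lists hold no expression value that could check the deletion of Nsd2.

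Short regions in compact genes were about as many in both libraries, while short regions elsewhere were fewer in the knockout. The knockout list held 1672 in compact genes against 1695 in wild type, 98.6% (92.1 to 106%). All other short regions numbered 31983 against 44611, 71.7% (70.7 to 72.7%). The difference of 26.95 percentage points had an interval of 20.4 to 33.98. In coding genes of 300 kb or more the knockout had 2482 short regions against 3987, 62.3% (59.2 to 65.5%), which was 36.4 points (29.1 to 43.99) below compact genes. Short regions only in genes of 10 to under 300 kb stood at 74.6% (73.1 to 76.1%), and those outside coding genes at 70.1% (68.4 to 71.7%). The absolute percentages depend on the bar: when wild-type regions of 500 bp with a score under 13.92 tags, the knockout bar at wild-type depth, were left out, compact genes stood at 147%, other short regions at 111% and genes of 300 kb or more at 99%. The order of these classes was kept.

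**Figure D1:**
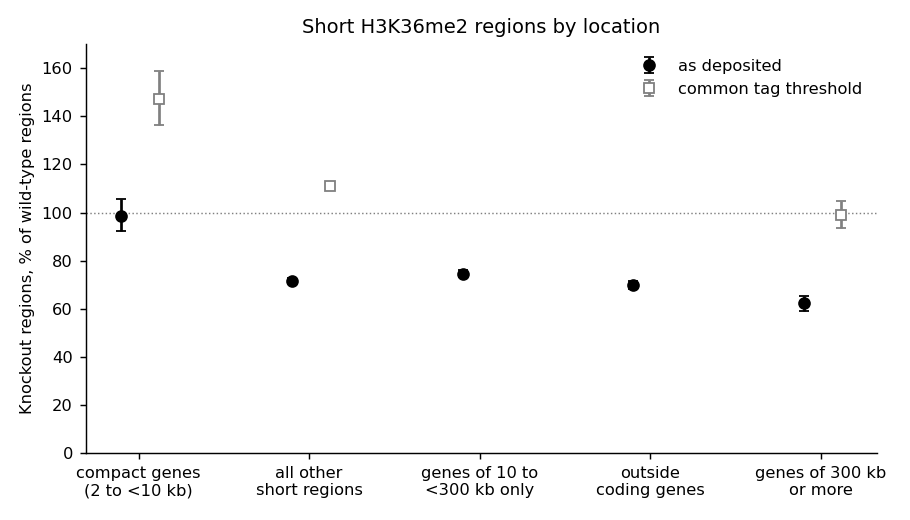
Number of knockout short regions as a percent of wild-type short regions (y axis) by location (x axis), from 1 library per genotype. Filled circles are the lists as deposited, open squares the lists with a common tag threshold, and bars are 95% counting intervals. Compact genes, at 98.6% as deposited, lie above every other location, and genes of 300 kb or more, at 62.3%, lie lowest.

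Members lay in gene-rich stretches. Within 100 kb of its midpoint the median member had 8 coding genes (wild type) or 9 (knockout), and the median other short region 2 or 3. Among regions with 1 to 3 such genes, compact genes stood at 79.7% and other short regions at 66.3%, a difference of 13.4 points (-4.60 to 36.4). With 4 to 6 genes the values were 84.5% and 78.1%, 6.37 points apart (-5.40 to 19.9). With 7 to 9 genes they were 112% and 86.1%, and this difference of 26.3 points (11.6 to 42.9) was the only one of the 5 whose interval lay above 0. With 10 to 14 genes they were 105% and 93.8%, 11.1 points apart (-2.94 to 26.4). With 15 or more genes compact genes stood lower, at 97% against 108%, a difference of -11.2 points (-35.0 to 13.6). Other short regions thus stood higher at each step of density, compact genes stood highest at 7 to 9 genes, and in 4 of the 5 density classes the gap was not resolved from 0.

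**Figure D2:**
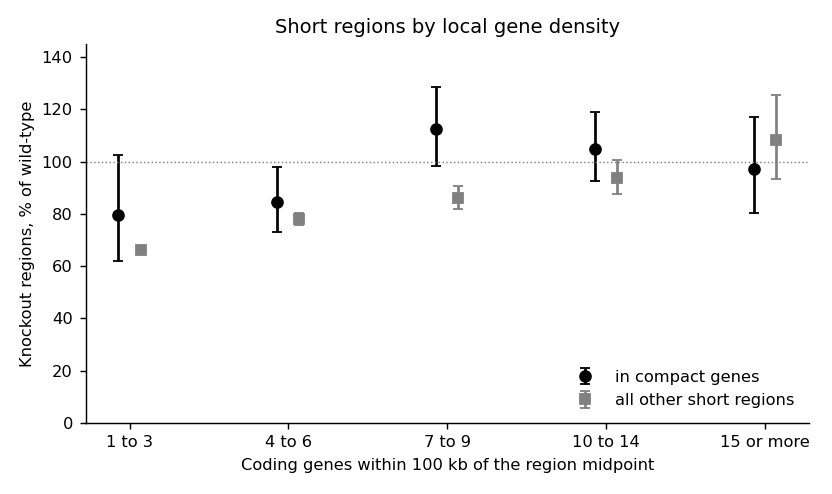
Knockout short regions as a percent of wild-type short regions (y axis) by the number of coding genes within 100 kb of the region midpoint (x axis). Circles are short regions in compact genes, squares all other short regions, and bars are 95% counting intervals from 1 library per genotype. Other short regions go from 66.3% with 1 to 3 genes to 108% with 15 or more, and the gap to compact genes is clear of 0 only at 7 to 9 genes.

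The gap to other short regions was small over promoters and wide away from them. A promoter window lay under 18.7% of wild-type members and 18.3% of knockout members, against 2.55% and 3.30% of other short regions. Over a promoter, the knockout had 306 members against 317, 96.5%, and other short regions stood at 92.7%, only 3.82 points lower (-12.7 to 22.2). Away from promoters, members stood at 99.1% and other short regions at 71.1%, a difference of 27.99 points (20.7 to 35.8). Region length changed less: among regions of exactly 500 bp the difference was 22.7 points (14.2 to 32.1), and among longer ones 33.4 points (23.3 to 44.5).

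Within the compact class, no difference of the percentage between gene lengths or between chromosomes was resolved. Genes of 2 to under 4 kb held 301 knockout short regions against 350, 86% (73.5 to 100.6%), genes of 4 to under 7 kb held 670 against 671, and genes of 7 to under 10 kb held 722 against 694, 104% (93.6 to 115.6%). These intervals overlap. By chromosome, compact genes stood above other short regions on 17 of 20 chromosomes, the exceptions being 16, 18 and X, and the interval of the difference lay above 0 on 8. The knockout had more members than wild type on 9 chromosomes. The chromosomes with the most members were 7, with 191 wild-type and 223 knockout members, and 11, with 179 and 202. The extremes were the X chromosome, with 23 and 12 members or 52.2% (23.7 to 109%), and chromosome 12, with 35 and 47 or 134% (84.9 to 214%). The interval of every chromosome held the 98.6% of all members.

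Members carried few tags. The wild-type median was 8.45 normalised tags, with quartiles of 7.58 and 10.8 and a range of 6.12 to 22.4. The knockout median was 9.13, with quartiles of 8.11 and 11.5 and a range of 6.09 to 20.6. In tags as sequenced the medians were 14.5 and 13.5. Medians of other short regions were 8.16 and 8.79 normalised tags. The knockout median minus the wild-type median was 0.68 tags as deposited and -0.78 with the common threshold, which takes out weak wild-type regions only and so can only lower this difference.

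The balance of the libraries differed between classes of tag count. Members under 8.11 normalised tags came to 691 (wild type) and 297 (knockout). This edge is the scaled bar of the knockout, and that of wild type was 7.58. The lowest class therefore cannot tell a difference in signal from the difference in bars. From 8.11 to under 10 tags there were 468 and 692, and from 10 to under 15 tags 476 and 584. At 15 tags or more there were 60 and 99, or 165% (119 to 231%), where other short regions stood at 110% with 1561 against 1418. In length the libraries were alike: the median was 500 bp in both, the mean 598 and 600 bp, and 57% and 56.1% of members had exactly 500 bp, the smallest unit of the caller. Wild-type members covered 1013927 bp in all, knockout members 1003334 bp.

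**Figure D3:**
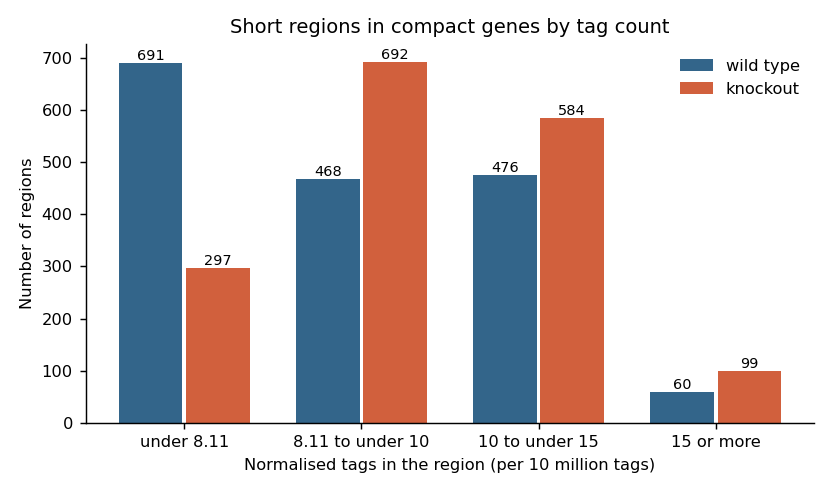
Number of short regions in compact genes (y axis, from 0) by normalised tags in the region per 10000000 tags (x axis), with bars for the wild-type and knockout libraries. Wild type exceeds the knockout only in the lowest class, 691 against 297, and the knockout exceeds wild type in the other 3. The lowest class ends at the scaled bar of the knockout, 8.11 tags, while that of wild type was 7.58.

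Most members lay at places without a region in the other library. In wild type 1135 of 1695 members, 67%, shared no base with any knockout region, beside 77.2% of all wild-type short regions. In the knockout 1091 of 1672, 65.3%, shared none with a wild-type region, beside 66.3% of all knockout short regions. Shared members made up 33% (30.8 to 35.3%) of the wild-type list, 10.6 points (8.36 to 12.96) above other short regions, and 34.7% (32.5 to 37.1%) of the knockout list, 1.09 points (-1.26 to 3.48) above. The knockout value joins strata that differed: members of exactly 500 bp were shared more often than other short regions of that length, by 3.05 points (0.118 to 6.12), and longer members less often, by -5.77 points (-9.49 to -1.98). Against short regions in genes of 300 kb or more, knockout members were shared more often by 3.44 points (0.494 to 6.41). Whether these differences differ between the libraries was not tested.

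Sharing went with signal and with promoters. Of members with 15 tags or more, 40 of 60 in wild type and 69 of 99 in the knockout were shared, 66.7% and 69.7%. Members over a promoter were shared in 46.7% and 46.1% of cases, and the rest in 29.9% and 32.2%. A region of 1 kb or more in the other library lay over 144 wild-type members (8.50%, 7.21 to 9.93%) and over 154 knockout members (9.21%, 7.87 to 10.7%). Of these, 83 and 73 lay wholly inside the longer region, and the others shared at least 1 bp with it. Among other short regions this held for 4.67% in wild type and 8.98% in the knockout. A further 416 and 427 members overlapped only short regions. In the 407 pairs of overlapping members the median tag count was 9.33 in wild type and 10.1 in the knockout, and the knockout value was the higher in 224 pairs, 55% (50.1 to 59.9%). The median ratio of knockout to wild type was 1.05, with quartiles of 0.846 and 1.31. In 7898 overlapping pairs of other short regions it was 1.04, with the knockout higher in 54.4%. Each region of a pair had been called against the bar of its own library, and the scaled bar was higher for the knockout. These pairs therefore cannot tell a higher knockout signal from the difference in bars.

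Member midpoints lay somewhat more often on the start side of the gene, where midpoints before the start are counted too. Strand was known for 4208 of the 5300 compact genes, which covered 1419 of 1731 wild-type region-gene pairs and 1389 of 1712 knockout pairs. The midpoint lay nearer the start than the end in 54.1% (51.4 to 56.7%) of wild-type pairs and 56.4% (53.8 to 59.1%) of knockout pairs. The first 10% of the gene body held the most midpoints, 11.3% and 12.4%. Midpoints before the start made up 8.95% and 9%, and midpoints past the end 2.89% and 2.95%. The lean thus rests in part on regions centred outside the gene body. With at least 50% of the region inside the gene, the start-side share over both libraries was 52.5% (50.5 to 54.5%). The counting intervals of the libraries overlapped at every position.

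**Figure D4:**
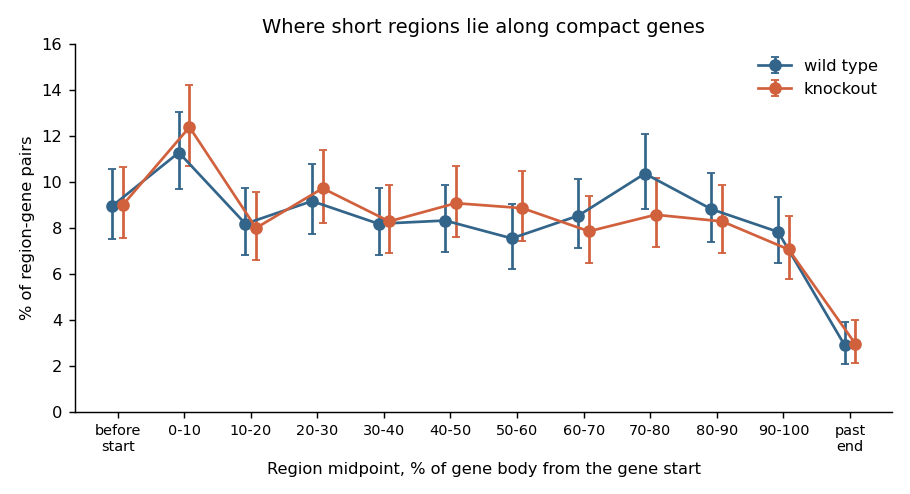
Position of short regions along compact genes of known strand, as the percent of region-gene pairs (y axis) whose midpoint lies in each 10% of the gene body from the gene start, before the start or past the end (x axis). Points are the wild-type and knockout libraries and bars are 95% counting intervals. Both peak in the first 10% of the gene, at 11.3% and 12.4%, and are lowest past the end, at 2.89% and 2.95%.

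Compact gene promoters under a member were richer in GC and CpG than those under no region. The median GC content was 59.3% in the 347 promoters under a wild-type member and 60.7% in the 343 under a knockout member, against 54.3% for the 3974 compact gene promoters under no region and 52.7% for all 32851 promoters in the table. Median CpG counts per 300 bases were 18 and 20, against 9 and 7. Motif letters were searched on both strands. GGGCGG, the GC box bound by Sp1, occurred in 63.4% and 67.1%, against 39% under no region and 35.7% of all promoters. CCGGAAG, an ETS family motif, occurred in 18.2% and 16.9%, against 12.1% and 8.86%. TATAAA, the TATA box, was rarer under members, at 8.65% and 6.12%, against 15% and 13.6%. TGACGTCA, the cAMP response element, was in 1.44% and 3.79%, with 2.29% under no region and 1.79% in all promoters. Closer backgrounds gave smaller gaps in GC and CpG. Over all compact gene promoters the median GC content was 55.3%, the median CpG count 11 and the GGGCGG share 42.6%. Over promoters of coding genes these were 56.7%, 13 and 46.7%. Under members in both libraries, 116 promoters, GGGCGG reached 76.7% and CCGGAAG 26.7%. For the other motifs searched, the values under members are set against compact gene promoters under no region and then all promoters. CCAAT was in 42.1% and 45.5%, against 40.8% and 37.4%. The E-box CACGTG was in 11.5% and 9.62%, against 7.83% and 7.15%. The Runx motif TGTGGTT was in 4.32% and 4.66%, against 5.79% and 5.27%. The AP-1 motif TGACTCA was in 6.92% and 5.83%, against 5.18% and 5.2%. The STAT motif was in 2.88% and 3.21%, against 4% and 3.91%. The NF-kappaB motif was in none, against 0.126% and 0.155%. A match describes letters and is not evidence of binding.

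Of 5300 compact genes 1958 held a member in either library, 1334 (25.2%) in wild type, 1310 (24.7%) in the knockout and 686 in both. Most held 1 member, 1002 genes in wild type and 986 in the knockout, and the most in 1 gene was 4 and 5. In 540 genes, 27.6% (25.6 to 29.6%) of the 1958, wild type had a member and the knockout no region of any length. In 514 genes, 26.3% (24.3 to 28.3%), the reverse held. Among all 10978 coding genes of 2 kb or more with a short region in either library, these shares were 22.4% and 15.3%. With the common threshold the counts of genes were 343 and 642, so the balance between the libraries depends on the bar. At the gene's edge the call can mislead: in 6 of the 540 and 17 of the 514 the member overlapped a region of the other list that ended outside the gene body. In a further 108 and 110 genes the other library had only a region of 1 kb or more.

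The sums of tags that follow take in short regions only, and regions of 1 kb or more are not in them. The compact gene with the most tags in short regions over both libraries was Ctu2 (chromosome 8, 122476068 to 122483092), a subunit of the enzyme that adds sulphur to tRNA. It held 3 short regions in each library, with 15.4, 15.2 and 11.7 wild-type tags and 10.8, 16.2 and 8.11 knockout tags, each overlapping its counterpart. The sums were 42.3 (33.1 to 53.2) and 35.1 (26.2 to 46.1), and these intervals overlap. Pidd1, which encodes the scaffold of the PIDDosome in the DNA damage response, had sums of 43.1 (33.9 to 54.1) in wild type and 27.1 (19.4 to 36.9) in the knockout, where 1 of the 3 wild-type regions met a longer knockout region of 1107 bp. Mfsd12, a lysosomal transporter, went the other way, with 3 regions and 27.4 tags (20.1 to 36.4) in wild type and 5 regions and 47.6 tags (37.1 to 60.1) in the knockout, although wild type had a 2266 bp region over 1 of these.

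Art2b, an ADP-ribosyltransferase of the T cell surface, summed to 26.8 tags in wild type and 45.6 in the knockout. Its stronger wild-type member had 14.6 tags and met a knockout member with 14.2. The other wild-type member, with 12.2 tags, lay inside a longer knockout region of 1131 bp with 22 tags, which is not in the sum. Mbd6, of the methyl-CpG-binding domain family, had 33.5 and 38.1. Its region at chr10:127290351-127291290 with 20.6 tags in the knockout and 9.91 in wild type also lay in Ddit3, the stress factor CHOP. Ninj1, a mediator of plasma membrane rupture, had 33.2 and 32.1, and Dok3, an adaptor of immune receptor signalling, 31.5 and 30.1. The remaining genes of the 10 with the most tags in short regions were Pheta2 with 34.5 and 35.5, E030018B13Rik with 22.5 and 42.9 and Rab25, a small GTPase of vesicle recycling, with 25.4 and 38.2.

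Of genes with members in wild type and no knockout region, Mrpl4, a protein of the large mitochondrial ribosomal subunit, stood first. Its 4 regions had 7.87, 7.58, 7.58 and 9.62 tags, a sum of 32.7. Troap, a spindle-associated protein, followed with 28.5 tags, then Erfe, the erythroid hormone erythroferrone, with 27.1, Zfp574 with 26.8 and Lcn6, a lipocalin, with 26.6. S100a16, a calcium-binding protein, had 26.2, Trib3, a stress-induced pseudokinase, 25.4 and Dus3l, a tRNA dihydrouridine synthase, 23.6.

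Of genes with members in the knockout and no wild-type region, Lrrc45, a centrosome linker protein, stood first with 9.13, 10.8 and 17.2 tags, a sum of 37.1 (28.0 to 48.3). Prr7 had 35.2. Pfn1, profilin, which binds actin monomers, had 3 regions with 8.11, 12.5 and 13.9 tags over 36.8% of the gene. Slc39a3, a zinc importer, had 32.8 and Ogfr, the opioid growth factor receptor, 30.7. Fosb, an AP-1 subunit, had 9.47, 11.2 and 11.5 tags, a sum of 32.2 (23.7 to 42.7). Nop53, a ribosome assembly factor, had 29.5 and Tmem79, a membrane protein of skin barrier granules, 27.7.

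A handful of genes held 4 or more members in 1 library. Slc25a10, the mitochondrial dicarboxylate carrier, had 5 knockout members with 8.11, 10.5, 10.1, 7.44 and 11.8 tags, while wild type had a single region of 1940 bp with 28.3 tags over 2 of them and no short one. Plin4, a lipid droplet protein, had 4 wild-type members with 42 tags against 19.2 in the knockout, Rcn3, a calcium-binding protein of the endoplasmic reticulum, 39.6 against 16.9, Yif1b, a Golgi trafficking protein, 39.1 against 11.8, and Pam16, of the mitochondrial import motor, 31.8 against 9.13. The single strongest members were in Rita1 with 22.4 tags, Ptma with 21.9 and Eif5a, a translation factor, with 21.3 in wild type. In the knockout they were in Cdk4, the cell cycle kinase, at the shared start of Mbd6 and Ddit3, and in Tap1, the peptide transporter of antigen presentation, all with 20.6. These places were not empty in the other list: Rita1 had a knockout region of 1712 bp with 31.1 tags, Eif5a one of 2176 bp with 38.9, Cdk4 a wild-type region with 8.45 tags and Tap1 one with 14.

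Gene lists are described by the number of compact genes with a member, beside 25.2% of all compact genes in wild type and 24.7% in the knockout. Immediate-early and activation genes held members in 14 of 32 genes in wild type and 20 in the knockout. Genes for T cell receptor subunits and T cell identity held them in 3 and 6 of 10, and the TNF superfamily in 5 and 8 of 15. Housekeeping genes held them in 6 and 9 of 20, but in 2 and 9 with the common threshold and in 1 and 5 at 10 tags or more. These counts are of short regions only, and a gene whose sole region in a list was 1 kb or longer is not in them. With regions of any length counted, the libraries were closer in these lists. Immediate-early genes then stood at 21 and 24, T cell genes at 8 and 8, the TNF superfamily at 11 and 11 and housekeeping genes at 9 and 10. Of all compact genes, 29.3% in wild type and 28.8% in the knockout had a region of any length. With regions of exactly 500 bp alone, the immediate-early counts were 10 and 7.

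**Figure D5:**
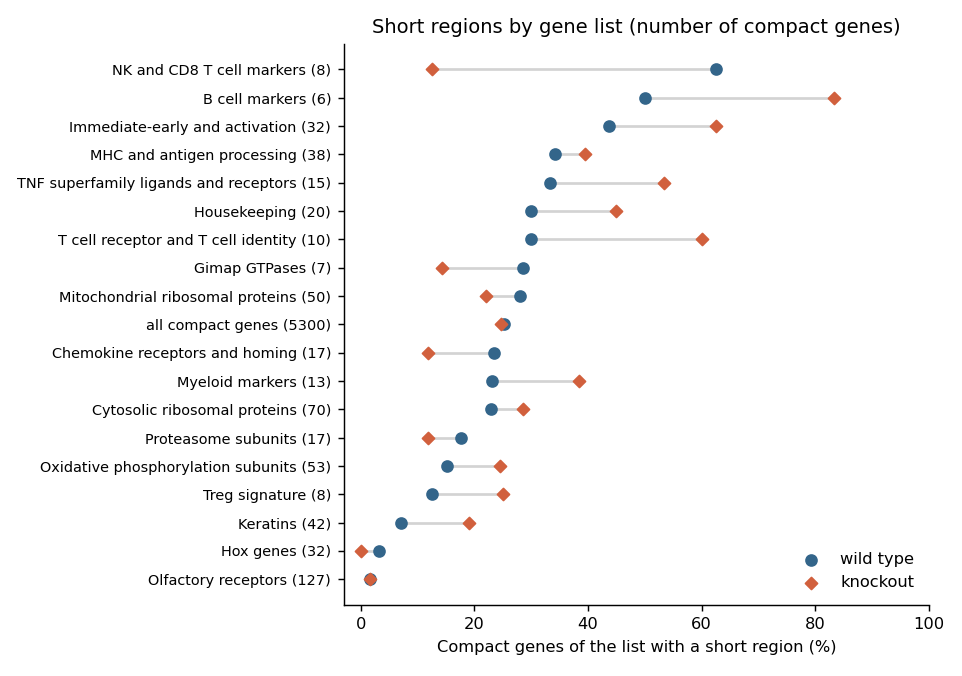
Percent of the compact genes of each list (x axis) that held a short region in the wild-type library (circles) and the knockout library (diamonds), with the number of compact genes in parentheses and lists of under 5 compact genes left out. All compact genes stand at 25.2% and 24.7%, immediate-early genes lie to the right and olfactory receptors and Hox genes near 0.

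Among immediate-early genes, Fosb, Egr1 and Fosl1 had members in the knockout and no wild-type region. Egr1, a zinc finger factor induced by receptor signals, had 1 with 18.3 tags and Fosl1, another AP-1 subunit, 1 with 10.8. Fos, the AP-1 subunit induced within minutes of stimulation, had 2 members in each library, summing to 21.9 (wild type) and 21.6 (knockout) tags. Egr3 had 12.5 and 13.5, and Cd69, an early activation antigen, 20.7 and 26.7. Btg2, an antiproliferative gene, had 7.29, 14 and 15.4 tags in wild type, a sum of 36.7 (28.2 to 46.9), and 11.2 (6.47 to 18) in the knockout, where a region of 1368 bp with 24.3 tags lay over the strongest wild-type member. Dusp6, a phosphatase of ERK kinases, had 19.2 tags in wild type and no knockout region, and Myc 7.58 tags in wild type and no knockout region. Pim1, a kinase induced by cytokines, had knockout members summing to 24.7 tags, while wild type had longer regions over 52.5% of the gene, close to the 51.9% covered by all knockout regions. Egr1, Fosl1, Dusp6, Myc, Fos, Egr3 and Cd69 were picked after their values were seen, to show the spread of the list.

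The T cell genes gave similar cases. Sh2d2a, the adaptor TSAd of T cell signalling, had 1 wild-type member with 10.8 tags (6.46 to 17) and 3 knockout members with 8.45, 12.2 and 12.5, a sum of 33.2 (24.5 to 43.8). Cd3d, a subunit of the T cell receptor complex, had a knockout member with 11.2 tags inside a wild-type region of 2543 bp with 42.8 tags, so the short region there was part of a longer one in wild type. Regions of any length covered 43.3% of Cd3d in wild type and 59.9% in the knockout. Ly6e had a knockout member with 7.78 tags, and 49.3% of the gene was covered by wild-type regions and 53.2% by knockout regions. Of the Treg signature list, 1 of 8 compact genes had a member in wild type and 2 in the knockout, and 4 and 5 had a region of any length. Gzmb, granzyme B, had 8.45 tags in each, and Ebi3, a subunit of the cytokine IL-35, 8.11 in the knockout alone.

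In the TNF superfamily, Cd27 had 17.2 tags in wild type and 13.9 in the knockout, and Fasl, the ligand of the death receptor Fas, 11.9 and 10.5, both picked after their values were seen. Tnf had a knockout member with 11.5 tags over a wild-type region of 1090 bp with 17.8, Tnfrsf25 one with 11.5 inside a wild-type region of 3515 bp with 60.3, and Tnfsf12 one with 8.45 over a wild-type region of 1026 bp with 15.7. The 3 cytokine signalling genes that were compact all had a member. Socs3, an inhibitor of cytokine receptors, had 9.62 and 11.5 tags at places that did not overlap. Cish, another inhibitor, had a knockout member with 13.9 tags within a wild-type region of 1032 bp with 16.6, and Il2rg, the common gamma chain, a wild-type member with 7.58 tags that shared 18 bp with a knockout region of 1220 bp. Tnf, Tnfrsf25, Cish and Il2rg thus carried called signal in both libraries.

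Chemokine receptor and homing genes had members in 4 of 17 in wild type and 2 in the knockout, and regions of any length in 8 and 7. Cxcr4, the receptor for CXCL12, had 9.03 tags and Cxcr2 8.45 in wild type alone. Cxcr1 had 15.2 in the knockout, but a wild-type region of 500 bp with 8.16 tags shared 484 bp with it just outside the gene body. At 10 tags or more this list had members in 1 and 2 genes. Of the 7 compact Gimap genes, GTPases of lymphocyte survival, Gimap4 and Gimap6 had wild-type members inside knockout regions of 2537 and 5098 bp, and Gimap1 had a knockout member inside a wild-type region of 11999 bp with 221.8 tags.

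MHC and antigen processing genes had members in 13 of 38 in wild type and 15 in the knockout, but 8 and 7 at 10 tags or more. Regions of any length lay on 14 and 18 of them. Tap1 had sums of 28.6 and 31.4 tags, Psmb9, an immunoproteasome subunit, 14.6 and 16.2, and H2-D1 12.5 and 13.9. H2-K1, a class I heavy chain, had 21.6 in wild type and 7.44 in the knockout, at places that did not overlap. H2-Ke6 is on the list and carries an H2 symbol, but does not encode an MHC molecule. Its wild-type members of 12.2 and 12.5 tags both lay inside 1 knockout region of 3042 bp with 44.3 tags, which covered the whole gene. H2-T-ps had 8.45 and 7.78 tags in the knockout and no wild-type region. Class I genes are near-identical to each other, so reads can be placed in the wrong copy, and these values are uncertain. Psmb9 and H2-D1 were picked after their values were seen.

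Cytosolic ribosomal protein genes had members in 16 of 70 in wild type and 20 in the knockout, near the share of all compact genes. Rpl18 went from 1 member with 8.74 tags (4.89 to 14.4) to 3 with 12.5, 10.1 and 14.9, a sum of 37.5 (28.3 to 48.8), although a wild-type region with 6.99 tags shared 441 bp with the first. Rpl19 had 11.1 and 10.5 tags in wild type and no knockout region. Rpl29 had 8.11 and 7.44 in the knockout alone, the second overlapping a wild-type region outside the gene body by 362 bp. Ribosomal protein genes have many processed copies elsewhere, to which reads can be assigned.

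Subunits of oxidative phosphorylation had members in 8 of 53 genes in wild type and 13 in the knockout, 7 and 6 with regions of exactly 500 bp alone, and 4 and 13 with the common threshold. Atp5g2, of the ATP synthase, had 7.58 and 8.45 tags in wild type alone, Ndufb4, of complex I, 14.9 in the knockout alone, and Ndufa11 a knockout member with 15.2 tags inside a wild-type region of 2336 bp. Mitochondrial ribosomal protein genes had members in 14 and 11 of 50, and 9 and 11 with the common threshold. With regions of any length the mitochondrial ribosomal counts were 14 and 15, and those of oxidative phosphorylation 10 and 15. Mrps18b had 7.29 and 9.91 tags in wild type alone and Mrps14 14.2 in the knockout alone. Proteasome genes had members in 3 and 2 of 17, and regions of any length in 4 and 2. Psma4, a core subunit, stood at 15.2 in wild type, Psmb8 at 9.33 in wild type and Psmc5 at 8.45 in the knockout.

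Counted per gene, the housekeeping list held 6 members in wild type and 15 in the knockout, beside 1731 and 1712 over all compact genes. Regions of any length lay on 9 and 10 of its 20 genes. Actb, beta-actin, had 8.45 and 12.8 tags in the knockout, of which the second lay inside a wild-type region of 5691 bp with 97 tags. All regions together covered 67.2% of Actb in wild type and 37.5% in the knockout. Pfn1 had no wild-type region and 34.5 tags in the knockout. Eef2, a translation elongation factor, had 1 member with 11.4 tags and 2 with 20.6, and its coverage was 15.3% in wild type and 40.7% in the knockout. Tubb5 and Myl6 had 7.29 and 7.87 tags in wild type alone. Eef2, Tubb5 and Myl6 were picked after their values were seen.

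Genes that T cells do not normally express served as a background. Members lay in 2 of 127 compact olfactory receptor genes in each library, Olfr550 with 8.16 and 11.7 tags and Olfr524 with 10.5 in wild type and Olfr374 with 12.5 among those of the knockout. Of 32 compact Hox genes 1 had a member, Hoxd12 with 7.58 tags in wild type. Keratins had members in 3 of 42 genes in wild type and 8 in the knockout, and in 1 and 8 with the common threshold. Krt83, a hair keratin, had sums of 34.1 and 16.9, with a knockout region of 1029 bp over 1 of the wild-type members, Krt28 had 10.8 and Krt86 10.1 in the knockout alone.

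Markers of other blood cells also held short regions. NK and CD8 T cell markers had them in 5 of 8 compact genes in wild type and 1 in the knockout, and the counts with regions of any length were also 5 and 1. Gzmm had 7.29 and 9.91 tags, Gzma 8.16 and 6.99 and Eomes, picked after its value was seen, 7.87 in wild type alone, while Prf1, perforin, had 10.8 tags in wild type with a knockout region of 753 bp and 15.6 tags sharing 687 bp just outside the gene body. B cell markers had members in 3 and 5 of 6, with Cd72 at 29.4 and 15.6 tags, Cd79b at 9.13 in the knockout over a wild-type region of 1495 bp, and Vpreb3 at 8.45 in the knockout alone. At 10 tags or more the B cell counts were 3 and 0 and those of NK and CD8 T cell markers 1 and 0, and with the higher-scoring 50% of short regions the latter turned to 0 and 1. Myeloid markers had members in 3 and 5 of 13, among them Tyrobp, C1qc and Cst3 with 13.5, 8.45 and 8.45 tags in the knockout, the first overlapping a wild-type region of 1134 bp. Of the 6 myeloid genes with a member, 3 had higher and 3 lower summed tags in the knockout. Among the latter, 1 had a wild-type member and no knockout region. Klf1, an erythroid factor, had 12.8 in wild type alone. The part that other cells in either sample had in these regions was not tested.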

How the data were processed

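H3K36me2 was profiled in 1 wild-type and 1 Nsd2 Treg conditional knockout library, by in situ ChIP and transposase-indexed libraries, per the labels' protocols. Per the submitters' processing notes, the build was mm10 and the tools HOMER, Bowtie2, Trim Galore, deepTools and Picard (no versions). Per the file headers, the authors called regions with HOMER findPeaks in histone style on each library alone, with no control library. The deposited normalised tag count is a signal scaled to 10000000 tags. The score deposited by the authors was used only to pick the higher-scoring 50% of short regions. A ratio that the authors deposited, the clonal fold change, stayed out.

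Gene bodies and promoters came from RefSeq tables of GRCm38.p6 (5300 compact genes, 4208 with strand). Exons and introns were not used here. Members, gene lists and the rule for named genes were chosen with earlier results of these data known. Named were the 10 compact genes with the most summed tags, the 8 with the most in each library among those with no region in the other, the 3 of each of 20 lists with the largest difference in summed tags, the 3 strongest members per library and genes with 4 or more members; exceptions are stated, and 1 named gene is not reported here. Overlap meant at least 1 bp. Shares have exact Clopper-Pearson intervals, percents of wild type the same on the knockout share, their differences combine the separate intervals, and tag sums have exact Poisson intervals. The scripts (scipy 1.17.1, pandas 2.3.3 and numpy 2.4.6 under Python 3.11.15) were tested on a copy of the wild-type list with the regions of 200 genes removed. There they found 200 of 200 emptied genes and miscalled 0 of 1123 untouched ones. The copy had no noise and no change of depth or bar, so it checks the counting only and gives no error rate for the real lists. Coordinates of regions are as deposited.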

Additional observations from a re-analysis of the deposited data

How the results depend on the processing

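The comparisons were recomputed under 10 kinds of alternative, of which the share of the region that must overlap touches only the sharing results, 83 values in all: 47 stayed close, 33 moved and 3 changed sign. The percent for compact genes stayed above that of all other short regions and of genes of 300 kb or more in each. Genes of 10 to under 300 kb and regions outside coding genes were not recomputed. With the common tag threshold, which acts on wild-type regions of 500 bp only and leaves 1137 wild-type members, the knockout stood at 147% of wild type, 36.1 points above other short regions and 48 above genes of 300 kb or more. Shared members then made up 38% of wild type and 28.3% of the knockout, the median tag difference turned to -0.78 from 0.68, and 343 genes were in wild type alone against 642 in the knockout alone. With at least 10 normalised tags the values were 127%, 40.8 and 55.2 points, 25.8% of knockout members shared, a median difference of -0.10, 241 and 336 genes in wild type and knockout alone, and 57.2% of pairs nearer the start. With the higher-scoring 50% of short regions they were 132%, 37.6 and 51.7 points, 40.3% and 37.2% shared, -0.10, 205 and 271 genes, and 58.5%, against 55.2% over both libraries as deposited. With regions of exactly 500 bp 26.2% and 28.6% were shared. With longer ones the gap to genes of 300 kb or more was 45.2 points, 42.1% and 42.6% were shared, and 207 and 202 genes were in 1 library alone. With at least 50% of the region in the gene 52.5% of pairs lay nearer the start, with genes of 3 to under 8 kb 351 and 337 genes were in 1 library alone, and with at least 50% of the region shared the shares were 25.5% and 27.2%. Leaving out the X chromosome, or members also in a coding gene of 10 kb or more, moved none of the class comparisons.

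Of 83 named genes, 12 had a difference of the opposite sign and 69 a difference of 0 under at least 1 alternative. Some of these zeros are set by the alternatives themselves. A gene with 1 member over both libraries must fall to 0 either among regions of the caller's smallest unit or among longer ones. Every gene outside the narrower range of gene lengths also falls to 0 there. The count of 69 therefore cannot show how stable the differences of these genes are. Members carry few tags, so a gene called in 1 library alone may hold signal just under the bar in the other. No paired analysis was possible because each genotype has 1 library, and no replicate could be left out.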
